A study of Mus musculus with 12 samples.

Results

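The genes described here are the 10 MHC class II presentation genes H2-Aa, H2-Ab1, H2-Eb1, Cd74, H2-DMa, H2-DMb1, H2-DMb2, H2-Oa, H2-Ob and Ciita. They were picked by name from the antigen presentation pathway, out of 21853 genes in the deposited expression table. All 10 reached an FPKM (fragments per kilobase of transcript, scaled to the library's mapped fragments) of 1 in 3 or more of the 12 libraries, as did 10994 genes in all, which were the genes tested. No member was listed at 0 in any library.

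Whole bone marrow from mice named as B6 in the labels was sequenced as RNA, with 3 libraries in each of 4 groups. Control mice were not irradiated. TBI mice received 5 Gy of total body irradiation with gamma rays and then olive oil, the vehicle, by gavage. TBI+DEIX mice were irradiated and took DEIX by mouth at 25 mg per kg once a day for 14 days, and DEIX mice received DEIX without irradiation. The series title names deinoxanthin, a carotenoid, as the compound. Marrow was collected on day 14. No gavage is stated for the control mice, so dosing itself cannot be told apart from irradiation or DEIX in any comparison with control. The labels number the libraries 1 to 3 in each group and do not say that each came from its own mouse. The p-values therefore measure the spread between these libraries, which may be technical.

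MHC class II molecules are pairs of an alpha and a beta chain that carry peptides of engulfed proteins to the cell surface, where CD4 T cells read them. In marrow they are made mainly by B cells, dendritic cells and part of the macrophages and monocytes. The pair is built around the invariant chain, encoded by Cd74, which blocks the groove until it is cut down in endosomes to a remnant called CLIP. H2-DM, made of H2-DMa and either H2-DMb1 or H2-DMb2, exchanges CLIP for other peptides, and H2-O, made of H2-Oa and H2-Ob, restrains H2-DM and is known mostly from B cells. Ciita encodes a coactivator of class II genes. It binds no DNA itself but joins the RFX, CREB and NF-Y proteins that sit on a shared promoter module, the X and Y boxes.

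The members lie on 3 chromosomes (GENCODE vM21, GRCm38, 1-based). On chromosome 17, 8 of them fall within 224 kb, between 34092340 and 34316674, in the order H2-Oa, H2-DMa, H2-DMb2, H2-DMb1, H2-Ob, H2-Ab1, H2-Aa and H2-Eb1. H2-Aa is read from the minus strand and the other 7 from the plus strand. Ciita lies on chromosome 16, from 10480059 to 10528418.

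The promoter module is shown for 4 members, the classical chains H2-Aa and H2-Eb1 and both chains of H2-O, as examples of the presenting molecule and of the inhibitor of its editor. RefSeq promoters (GRCm38.p6) were matched for 7 members. Each line holds bases -125 to -39 from the RefSeq gene start, 5′ to 3′ on the strand of the gene. The capitals mark GNAAC, a short form of the X box start, and TGATTGG, a form of the Y box.
H2-Aa: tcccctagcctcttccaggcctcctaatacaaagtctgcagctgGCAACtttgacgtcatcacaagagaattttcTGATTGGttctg
H2-Eb1: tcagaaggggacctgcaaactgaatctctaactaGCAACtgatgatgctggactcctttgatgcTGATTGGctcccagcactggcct
H2-Oa: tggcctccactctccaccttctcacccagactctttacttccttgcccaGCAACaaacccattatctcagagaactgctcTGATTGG
H2-Ob: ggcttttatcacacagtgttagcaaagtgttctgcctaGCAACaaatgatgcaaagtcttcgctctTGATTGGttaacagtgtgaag

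These windows are chr17:34287862-34287948 on the minus strand for H2-Aa and, on the plus strand, chr17:34305742-34305828 for H2-Eb1, chr17:34092254-34092340 for H2-Oa and chr17:34238780-34238866 for H2-Ob. All 4 have the same GCAAC letters. Between the marked runs there were 26 bases in H2-Aa and H2-Oa, 25 in H2-Eb1 and 23 in H2-Ob, and H2-DMb1 had the pair with 26. On either strand, TGATTGG was found in 6 of the 8 promoters matched to members, against 7.82% of all 32851 promoters of the same length. GNAAC alone is in 84.8% of all promoters and so marks little. The pair on 1 strand, with 10 to 35 bases between, was in 5 of the 8 (62.5%) and in 0.682% of all. H2-DMb2 had TGATTGG without that pair, and neither of the promoters matched to H2-DMa had TGATTGG. The letters were picked with these sequences in view, so the shares are a description, and a match is not a measured binding site.

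**Figure D1:**
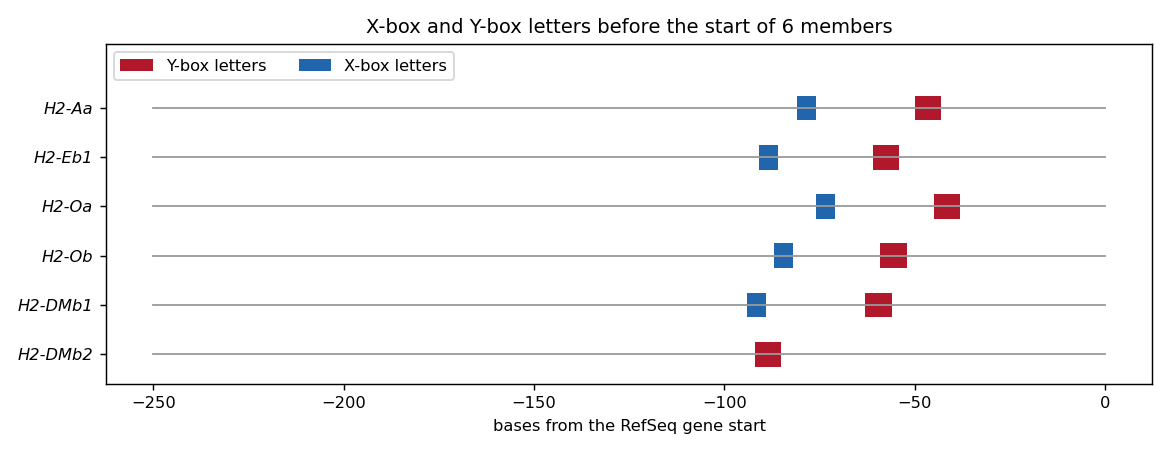
Positions of the GNAAC and TGATTGG letters before the RefSeq start of 6 members; the x axis gives bases from the gene start and each row is 1 gene. In the 5 members with the pair, 23 to 26 bases lie between the marked runs.

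The libraries differed in ways that touch the members. Summed FPKM ran from 493683 in TBI+DEIX replicate 1 to 848843 in TBI+DEIX replicate 3. The FPKM worth of 1 read, relative to control replicate 1, was settled in 7 libraries and ran from 0.892 in TBI replicate 2 to 1.90 in TBI+DEIX replicate 3, the shallowest of these. It was not settled for TBI+DEIX replicate 1, which stood apart: it had the lowest B cell, dendritic cell, monocyte, T and NK cell, erythroid and neutrophil marker sums of all 12. The summed FPKM of 8 neutrophil markers was 12901 or more in every library, as in whole marrow. Of these 8, 2 rose and 1 fell in TBI+DEIX against control, where 30% of all genes tested were called. On leaving out 1 library, 1 to 7 were called there, with 7 without TBI+DEIX replicate 1 (38.5% of all genes). None was called in the other comparisons of 2 groups with every library. On leaving out 1, TBI+DEIX against TBI had 0 to 4, with 4 without TBI+DEIX replicate 1 (25.8% of all genes). DEIX against control then had 0 to 1, with 1 without DEIX replicate 2 (8.53%). The sum of 7 erythroid markers ranged from 160 to 8010 FPKM. The members' SD between libraries of a group (root mean square over genes, log2(FPKM + 1) scale) was 0.18 for control, 0.53 for TBI, 0.97 for TBI+DEIX and 0.29 for DEIX. Over all genes tested apart from S100a8, S100a9 and Ngp it was 0.14, 0.23, 0.42 and 0.24.

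In control marrow the members spanned about 2 orders of abundance. Cd74 was highest at 425 ± 43.2 FPKM (SD, n = 3), above the classical chains H2-Aa at 161 ± 10.1 and H2-Ab1 at 145 ± 20.2, whose libraries overlapped. H2-DMa at 58.4 ± 7.92 and H2-Eb1 at 54.8 ± 3.66 came next and also overlapped. H2-DMb1 stood apart from its neighbours at 24.2 ± 2.67, followed by H2-Ob at 18.4 ± 2.6, H2-DMb2 at 15.0 ± 3.10 and H2-Oa at 11.4 ± 2.11, in which each neighbouring pair overlapped. Ciita was lowest at 3.43 ± 0.30, below every H2-Oa library. H2-DMb1 and H2-DMb2 share 751 of 783 coding bases, so reads may have been split between them and their separate levels are uncertain.

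**Figure D2:**
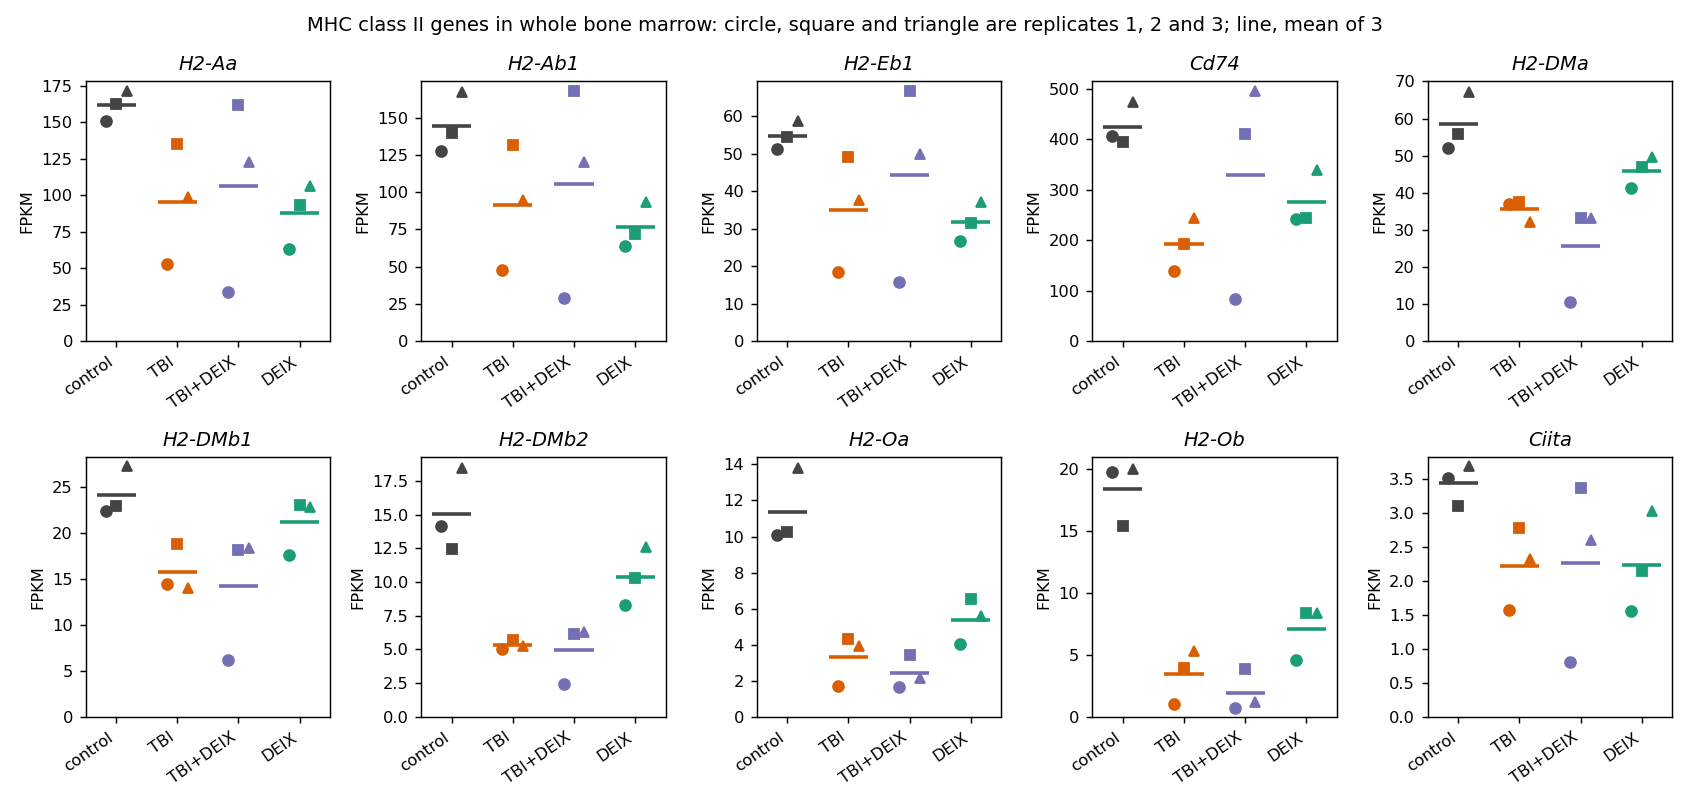
FPKM of each of the 10 members in the 12 libraries, by group; each point is 1 library, its shape gives the replicate number and the line is the mean of 3. Replicate 1 of TBI+DEIX is the lowest library for all 10 members, and H2-Ob is at 15.4 or more in control and at 8.36 or less in every other library.

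Irradiation with vehicle was compared with control to ask how TBI alters marrow. H2-Ob, H2-Oa and H2-DMb2 fell, which encode the H2-DM inhibitor and a chain of H2-DM, while the classical chains and Cd74 were lower on average without passing the test. All 10 members had negative changes, and 3 of 10 were called at a limma adjusted p under 0.05 (Benjamini-Hochberg, over all genes tested). Of all genes tested, 3.99% were called in either direction and 3.1% were called lower. In bulk marrow, fewer cells of a type and less RNA per cell cannot be told apart.

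H2-Ob, the beta chain of the H2-DM inhibitor, was at 19.8, 15.4 and 20.0 FPKM in control and at 1.07, 3.95 and 5.34 in TBI. Every TBI library lay below every control library, and replicate 1 was the lowest. The TBI mean of 3.45 ± 2.18 (SD, n = 3) was 18.8% of the control mean, a limma log2 change in FPKM + 1 of -2.26 (SE 0.44, adjusted p = 0.0176).

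H2-Oa, its alpha partner, was at 10.1, 10.3 and 13.8 FPKM in control and at 1.71, 4.30 and 3.93 in TBI. The groups were apart, and again TBI replicate 1 was lowest. H2-Oa fell by 1.57 on the log2 scale (SE 0.27, limma adjusted p = 0.00949), to 29.1% of the control mean.

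H2-DMb2, a beta chain of the peptide editor, was at 14.1, 12.5 and 18.5 FPKM in control and at 5.05, 5.70 and 5.26 in TBI. The 3 TBI libraries were close together, unlike those of H2-O, and all were below control. H2-DMb2 fell by 1.32 on the log2 scale (SE 0.26, limma adjusted p = 0.0192), to 35.5% of the control mean. These 3 calls depended on single libraries. H2-Oa was not called without control replicate 3 (limma adjusted p = 0.0567). H2-Ob was not called without control replicate 1, 2 or 3 (adjusted p = 0.0729, 0.0532 and 0.0821) or TBI replicate 1 (0.0541). H2-DMb2 was not called without control replicate 1 or 3 (0.0669 and 0.0986) or TBI replicate 1, 2 or 3 (0.0731, 0.0577 and 0.0607).

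The other chains of the editor moved less. H2-DMa was at 52.0, 55.9 and 67.3 FPKM in control and at 36.9, 37.5 and 32.3 in TBI. H2-DMb1 was at 22.5, 22.9 and 27.3 in control and at 14.5, 18.9 and 14.1 in TBI. Neither pair of groups overlapped, and the log2 changes of -0.70 (SE 0.33) and -0.59 (SE 0.31) had limma adjusted p-values of 0.302 and 0.353.

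The classical chains varied widely after TBI. H2-Aa was at 151, 162 and 171 FPKM in control and at 52.8, 135 and 98.9 in TBI. H2-Ab1, its partner in the I-A molecule, was at 128, 140 and 167 in control and at 48.0, 132 and 94.7 in TBI, so that TBI replicate 2 reached into the control range. H2-Eb1, whose alpha partner is not made in B6 mice, was at 51.3, 54.4 and 58.6 in control and at 18.4, 49.1 and 37.7 in TBI. In all 3 genes TBI replicate 2 lay near control and replicate 1 was the lowest of its group. The log2 changes of -0.85 (SE 0.50), -0.76 (SE 0.54) and -0.73 (SE 0.45) had limma adjusted p-values of 0.403, 0.501 and 0.431.

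Cd74, which lies on chromosome 18 from 60803848 to 60812652, was at 406, 394 and 475 FPKM in control and at 139, 192 and 245 in TBI. All TBI libraries were below control, and the log2 change of -1.17 (SE 0.53) had a limma adjusted p of 0.269. Ciita was at 3.52, 3.11 and 3.68 in control and at 1.57, 2.78 and 2.32 in TBI, a log2 change of -0.48 (SE 0.29, adjusted p = 0.422). Over the 10 members the median log2 change was -0.80, against 0.05 over all genes tested, and 9 of 10 had TBI libraries all below control, as did 16.3% of all genes tested. When only control and TBI were fitted, Cd74, H2-DMa and H2-DMb1 were called as well (limma adjusted p = 0.00803, 0.00760 and 0.0235), and 12.9% of all genes were called in that fit.

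DEIX was compared within irradiated mice to ask whether it altered the marrow after TBI. No member passed the test in TBI+DEIX against TBI, and TBI+DEIX replicate 1 lay far below the other libraries in most members. By limma, 0 of 10 were called and 0 of 10 had an unadjusted p under 0.05, where 8.1% and 27.2% of all genes tested did. No member's groups were apart in either direction, where 27.2% of genes were.

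Cd74 was at 82.7, 410 and 495 FPKM in TBI+DEIX, against 139, 192 and 245 in TBI. In FPKM as deposited, replicates 2 and 3 were above every TBI library and within or above the control range. Replicate 1 was below every other library of the study. The summed FPKM of replicate 3, 848843, was the highest of the 12 libraries, and its place against control on the TPM scale is not given here. The log2 change of Cd74 against TBI was 0.45 (SE 0.53, limma adjusted p = 0.628). Without TBI+DEIX replicate 1 it was 1.26 (adjusted p = 0.00646), in a fit that called 25.8% of all genes. Without replicate 1 of both groups it was 1.05 (limma adjusted p = 0.00680, with 31.5% of all genes called), a comparison of 2 against 2 libraries that was added after the values were seen.

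H2-Aa was at 34.1, 161 and 123 FPKM in TBI+DEIX, H2-Ab1 at 28.8, 168 and 121, and H2-Eb1 at 15.9, 66.8 and 49.9. Replicate 2 reached the control range or passed it in each of these classical chains, replicate 1 was the lowest of the 12 libraries, and replicate 3 lay between. The log2 changes against TBI were -0.02, -0.01 and 0.21 (limma adjusted p = 0.984, 0.993 and 0.803). Without TBI+DEIX replicate 1 they were 0.65, 0.74 and 0.81, and still not called (adjusted p = 0.160, 0.126 and 0.0799).

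The editor and its inhibitor had no such high libraries. H2-DMa was at 10.5, 33.2 and 33.2 FPKM in TBI+DEIX, H2-DMb1 at 6.23, 18.2 and 18.4, and H2-DMb2 at 2.45, 6.13 and 6.33. H2-Oa was at 1.65, 3.45 and 2.17, and H2-Ob at 0.683, 3.86 and 1.17. Every one of these values was below the lowest control library of its gene. Ciita was at 0.812, 3.36 and 2.61, with replicate 2 in the control range. The log2 changes against TBI of these 6 genes ran from -0.62 to -0.06, with limma adjusted p-values from 0.262 to 0.914.

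Against control, TBI+DEIX marrow had lower H2-Ob, H2-Oa, H2-DMb2 and H2-DMa. H2-Ob fell by 2.89 (SE 0.44, limma adjusted p = 0.00106), H2-Oa by 1.88 (SE 0.27, adjusted p = 0.000802), H2-DMb2 by 1.49 (SE 0.26, adjusted p = 0.00234) and H2-DMa by 1.31 (SE 0.33, adjusted p = 0.0133) on the log2 scale. These 4 of 10 calls stand beside 30% of all genes tested called in either direction and 13.1% called lower. TBI+DEIX libraries lay below every control library in 5 of 10 members, the chains of H2-DM and H2-O, and in 21.1% of all genes tested. H2-DMa was not called without control replicate 3 (adjusted p = 0.0524) or in a fit of these 2 groups alone (0.0763).

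H2-DMb1 (-0.85, limma adjusted p = 0.0609) did not pass, though it was called under some alternatives, among them the TPM scale and array weights. Ciita (-0.53, limma adjusted p = 0.186) did not pass. Neither did the classical chains and Cd74, with log2 changes from -0.87 to -0.52 and adjusted p-values from 0.211 to 0.411. Without TBI+DEIX replicate 1, their changes from control were -0.19 for H2-Aa, -0.02 for H2-Ab1, 0.08 for H2-Eb1 and 0.09 for Cd74. In the same fit H2-Ob was still at -2.57, H2-Oa at -1.71, H2-DMb2 at -1.13 and H2-DMa at -0.79 (adjusted p = 0.00168, 0.00128, 0.000786 and 0.000831), and 38.5% of all genes were called. The median of the 10 members moved from -0.86 to -0.29, against 0.02 over all genes tested with every library. TBI+DEIX against TBI and against control share the TBI+DEIX libraries, and all comparisons with control share the control libraries.

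DEIX alone was compared with control to show what the compound did without irradiation. All 10 members had negative changes and none was called: 0 of 10 at a limma adjusted p under 0.05 against 7.24% of genes, and 2 of 10, H2-Oa and H2-Ob, at an unadjusted p under 0.05 against 24.7%. In 8 of 10 members all DEIX libraries were below control, as in 17.2% of all genes tested. The 2 exceptions were H2-DMb1 and H2-DMb2.

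H2-Ob was at 4.61, 8.36 and 8.35 FPKM in DEIX, under the control minimum of 15.4, and its log2 change was -1.29 (SE 0.44, limma adjusted p = 0.101). H2-Oa was at 4.05, 6.53 and 5.59, under the control minimum of 10.1, with a log2 change of -0.96 (SE 0.27, adjusted p = 0.0582). With the replicate number as a block, H2-Oa passed (adjusted p = 0.0231), with 5.82% of all genes called. The DEIX means, 38.7% of control for H2-Ob and 47.4% for H2-Oa, lay between those of control and TBI.

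The classical chains held closer together than after TBI. H2-Aa was at 63.4, 93.2 and 106 FPKM, H2-Ab1 at 64.0, 72.3 and 93.7 and H2-Eb1 at 26.7, 31.7 and 37.2 in DEIX, with all 3 libraries of each gene below control. Cd74 was at 243, 243 and 340. The log2 changes of -0.91, -0.92, -0.77 and -0.64 had limma adjusted p-values of 0.288, 0.326, 0.323 and 0.493 in the fit of all 12 libraries. In a fit of only DEIX and control, these 4 genes were called with H2-Oa and H2-Ob (adjusted p = 0.0128, 0.00772, 0.00594 and 0.0291, then 0.00865 and 0.00573). That fit called 6 of 10 members and 18.7% of all genes tested.

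The chains of the editor kept the highest share of their control level with DEIX alone, at 78.7% for H2-DMa, 87.5% for H2-DMb1 and 69.2% for H2-DMb2. H2-DMa was at 41.2, 47.0 and 49.6 FPKM, H2-DMb1 at 17.6, 23.1 and 22.9 and H2-DMb2 at 8.28, 10.3 and 12.6, and their log2 changes of -0.34, -0.19 and -0.49 had limma adjusted p-values of 0.581, 0.754 and 0.279. Ciita was at 1.56, 2.14 and 3.03, a change of -0.48 (adjusted p = 0.339). The median over the members was -0.71, against 0.02 over all genes tested.

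**Figure D3:**
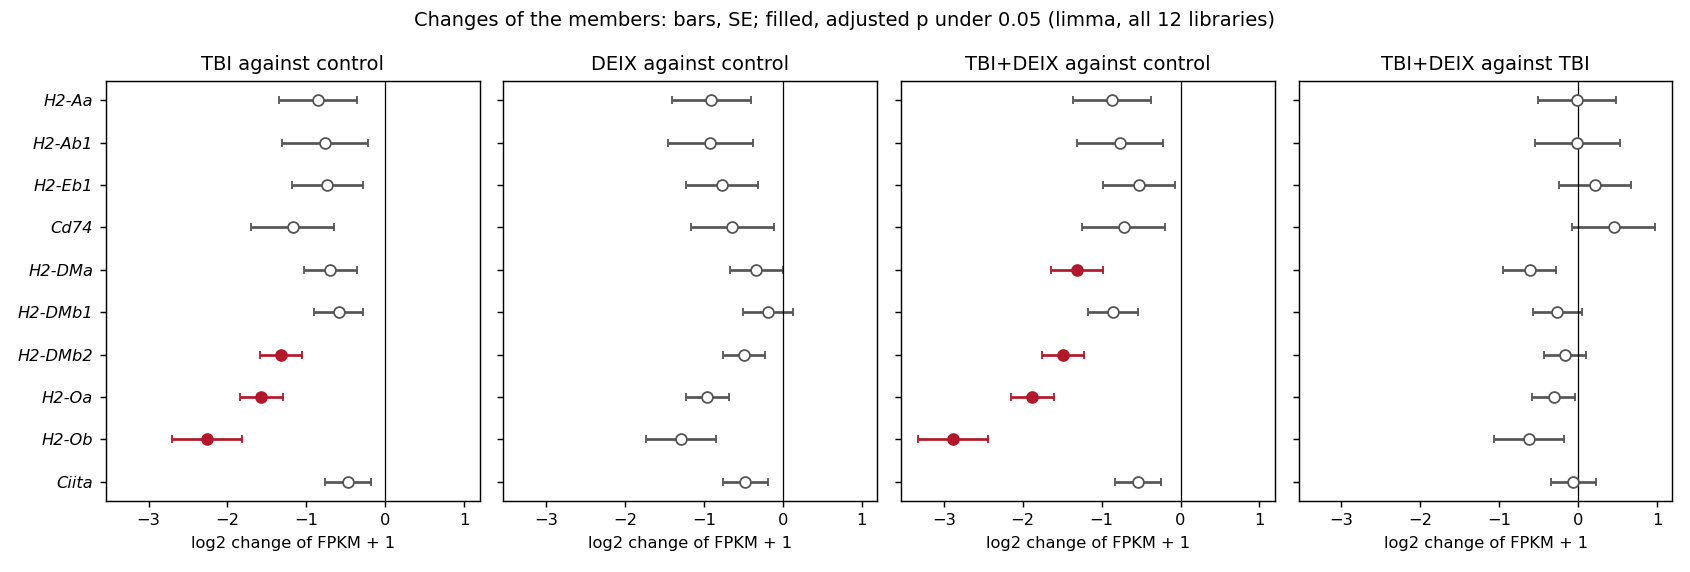
Log2 change of FPKM + 1 for each member in 4 comparisons; bars are the limma SE and filled points passed an adjusted p of 0.05. H2-Ob, H2-Oa and H2-DMb2 pass in TBI against control, these and H2-DMa pass in TBI+DEIX against control, and none passes in the other comparisons.

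Whether DEIX acted differently in irradiated and unirradiated mice was tested as an interaction. Its values were positive in 8 of 10 members, with a median of 0.66 against -0.02 over all genes tested, and H2-DMa and H2-DMb1 were slightly negative. By limma, 0 of 10 were called and 0 of 10 had an unadjusted p under 0.05, against 0.2% and 7.5% of all genes tested, and adjusted p-values ran from 0.813 to 0.999. Cd74 had the highest value, 1.09 (SE 0.75, adjusted p = 0.879). Without TBI+DEIX replicate 1 it was 1.90 and was called (limma adjusted p = 0.00649), with 3.01% of all genes.

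The balance between members was then read as ratios of FPKM within a library, which do not depend on how a library was scaled. With 3 against 3 libraries the exact two-sided permutation test cannot go below 0.1, which is 0.225 after adjustment over the 9 tests made, so no ratio could pass 0.05.

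H2-Oa to H2-DMa, inhibitor to editor, was 0.194, 0.183 and 0.205 in control and 0.0463, 0.114 and 0.122 after TBI. The ratio was 0.157, 0.104 and 0.0653 in TBI+DEIX libraries and 0.0983, 0.139 and 0.113 in those of DEIX alone. All 9 treated libraries were below all control libraries. The ratio was 2.24-fold lower in TBI and 1.68-fold lower in DEIX than in control, each at the smallest exact permutation p of 0.1. TBI+DEIX and TBI overlapped (exact permutation p = 0.7).

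H2-DMa to H2-Ab1, editor to classical chain, was tightly kept in control at 0.408, 0.400 and 0.403. It was 0.645, 0.651 and 0.529 in DEIX, 1.50-fold higher with no overlap (exact permutation p = 0.1). TBI libraries scattered to both sides of control at 0.768, 0.284 and 0.341, and TBI+DEIX libraries lay below it at 0.365, 0.198 and 0.276. TBI+DEIX against control was not tested for this ratio. Cd74 to H2-Ab1 was 2.95 ± 0.202 in control (SD, n = 3) and 3.60 ± 0.217 in DEIX, with TBI at 2.31 ± 0.760 and TBI+DEIX at 3.14 ± 0.863. DEIX was 1.22-fold above control with no overlap (exact permutation p = 0.1), and both TBI comparisons overlapped.

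**Figure D4:**
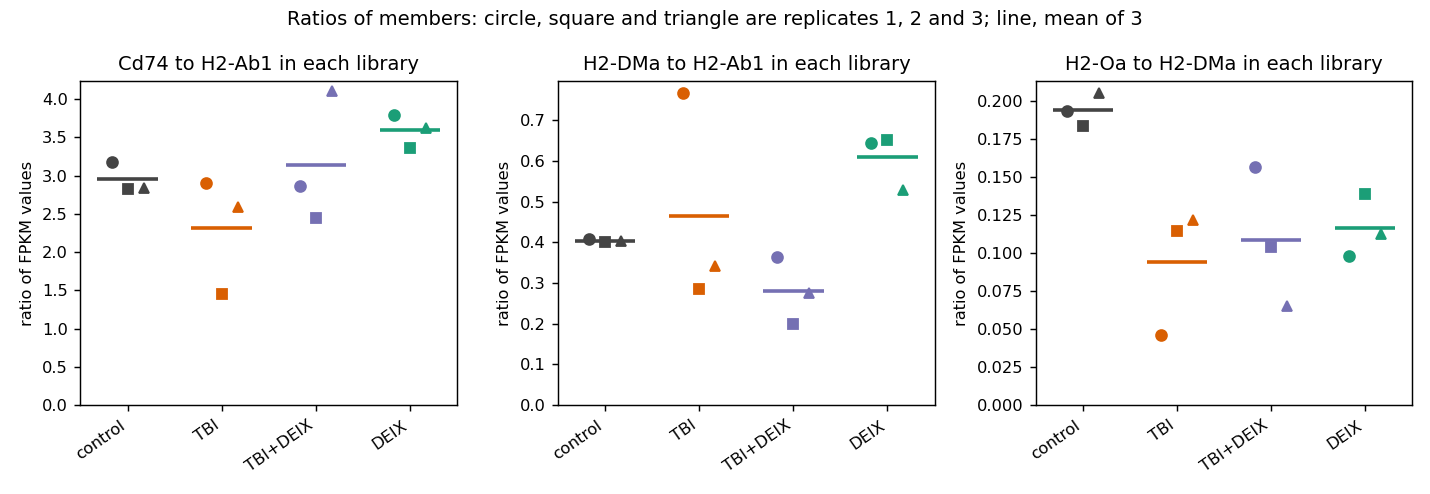
Ratios of FPKM values within each library for Cd74 to H2-Ab1, H2-DMa to H2-Ab1 and H2-Oa to H2-DMa; points are libraries, shapes give the replicate number and lines are means of 3. H2-Oa to H2-DMa is at 0.183 or more in control and at 0.157 or less in all other libraries.

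Markers of cells that make class II were read in the same libraries. The counts called stand beside 3.99% of all genes tested called in TBI against control, 8.1% in TBI+DEIX against TBI, 7.24% in DEIX against control and 30% in TBI+DEIX against control. On leaving out 1 library these shares were 1.39% to 2.36%, 0.0455% to 25.8%, 1.33% to 8.53% and 18.2% to 38.5%. Of 12 B cell markers, 6 fell in TBI against control, 0 were called in TBI+DEIX against TBI, 5 fell in DEIX against control and 12 fell in TBI+DEIX against control, with median log2 changes of -2.41, -1.03, -2.27 and -3.27. On leaving out 1 library, the calls numbered 5 to 6 in TBI, 2 to 5 in DEIX and 8 to 12 in TBI+DEIX against control, with 2 without DEIX replicate 1 or any control library and 8 without control replicate 3. In TBI+DEIX against TBI they numbered 0 to 4, with 4 without TBI replicate 1. Their summed FPKM was 649, 573 and 727 in control and 90.6, 112 and 134 in DEIX. TBI libraries had sums of 26.9, 215 and 250, and TBI+DEIX libraries of 7.93, 147 and 75.3. Group means of the sum were 25.2% of control after TBI, 11.8% in TBI+DEIX and 17.3% with DEIX alone. Single markers did not all follow this order, and some were lower after TBI than with DEIX alone. Fcmr was at 19.3 FPKM in control, 0.417 after TBI and 6.96 with DEIX alone, and Ms4a1 at 21.9, 0.508 and 6.73. Others went the opposite way, with Vpreb3 at 141, 44.2 and 9.05 and Ebf1 at 16.5, 8.09 and 2.07. Fcmr was the only B cell marker at 0, in TBI+DEIX replicate 1. The part of these cells in the members' changes was not tested.

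Per unit of B cell marker, the members split. H2-Ob FPKM divided by the B cell marker sum was 0.0305, 0.0268 and 0.0275 in control and 0.0509, 0.0744 and 0.0625 in DEIX. After TBI it was 0.0398, 0.0184 and 0.0213, and with TBI+DEIX 0.0861, 0.0262 and 0.0155. TBI and TBI+DEIX libraries lay on both sides of control, and DEIX libraries above it. H2-Ab1 divided by the same sum was 0.197 to 0.243 in control, 0.706, 0.643 and 0.701 in DEIX, 1.79, 0.615 and 0.379 after TBI and 3.64, 1.14 and 1.60 with TBI+DEIX. Cd74 went from 0.626 to 0.688 in control to between 0.894 and 10.4 in the treated libraries. Relative to B cell markers, H2-Ab1 and Cd74 were higher in every treated library than in control, as were H2-Aa, H2-Eb1, H2-DMa, H2-DMb1 and Ciita. For H2-DMb2, TBI libraries were at 0.188, 0.0265 and 0.0210 against 0.0218 to 0.0254 in control. For H2-Oa they were at 0.0636, 0.0200 and 0.0157 against 0.0156 to 0.0190. Relative to other lists, H2-Ab1 and Cd74 were not higher in every treated library. H2-Ab1 divided by the conventional dendritic cell marker sum was 3.01 to 3.83 in control, 1.75 to 2.64 in DEIX, 2.13 to 3.87 in TBI and 2.90 to 6.81 in TBI+DEIX. Cd74 divided by the macrophage marker sum was 1.67 to 2.24 in control, 1.52 to 2.02 in DEIX, 0.769 to 1.99 in TBI and 0.601 to 2.09 in TBI+DEIX. These quotients were chosen after the values were seen and have no test.

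**Figure D5:**
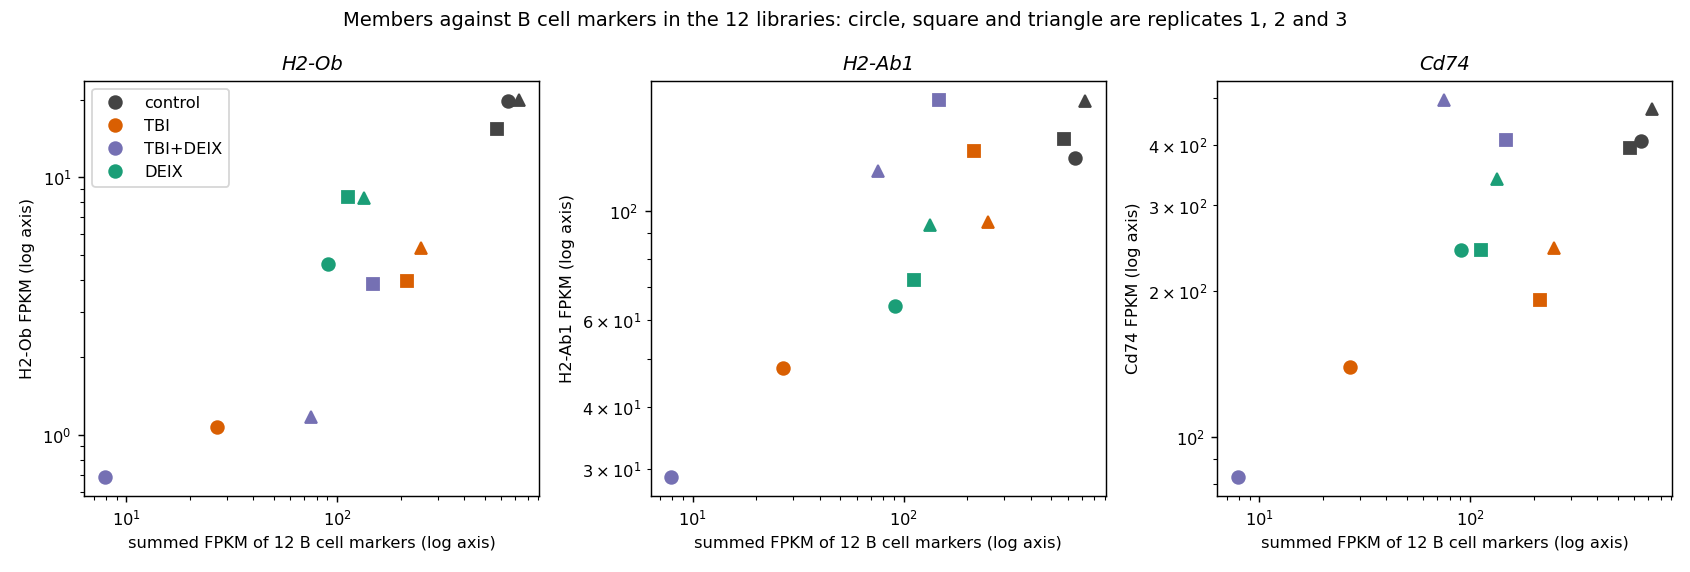
FPKM of members against the summed FPKM of 12 B cell markers in the 12 libraries, both on log axes; colours are groups and shapes give the replicate number. The marker sum runs from 7.93 to 727, and TBI+DEIX replicate 1 lies at the low end.

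The dendritic cell and macrophage lists moved differently. Of 6 plasmacytoid dendritic cell markers, 5 fell in TBI and 1 in DEIX against control, 2 fell in TBI+DEIX against TBI and 6 fell in TBI+DEIX against control, and their sum was 75.4 to 79.6 FPKM in control, 39.8 to 45.9 in DEIX, 26.1 to 38.1 in TBI and 10.6 to 23.0 in TBI+DEIX. Of 8 conventional dendritic cell markers, 7 were tested, and 3 fell in TBI+DEIX against control while none was called in the other comparisons. On leaving out 1 library, 2 to 5 conventional dendritic cell markers were called against control in TBI+DEIX, with 2 without any 1 control library or TBI+DEIX replicate 3, and 0 to 2 against TBI, with 2 without TBI+DEIX replicate 1. The plasmacytoid markers called were then 2 to 5 in TBI, with 2 without control replicate 1 or 3, and 0 in DEIX. In TBI+DEIX they were 6 in every such fit against control, and 0 to 4 against TBI, with 0 without replicate 3 of either group and 4 without TBI+DEIX replicate 2. The conventional sum was 41.6 to 43.6 in control, 24.3 to 41.3 in DEIX, 22.6 to 34.1 in TBI and 9.93 to 30.5 in TBI+DEIX, with Cd209a at 0 in TBI+DEIX replicate 1.

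Of 9 macrophage markers, 3 fell in TBI and 5 in DEIX against control, 2 rose in TBI+DEIX against TBI, and none was called in TBI+DEIX against control. None of the 3 falls in TBI was called without TBI replicate 2 or 3 or any control library. Neither rise was called without TBI replicate 3 or TBI+DEIX replicate 3. In TBI+DEIX against TBI, 6 markers were called without TBI+DEIX replicate 1, in a fit that called 25.8% of all genes. Of the falls in DEIX, 3 to 4 were called on leaving out 1 library. Their sum was 212 to 238 FPKM in control, 151 to 168 in DEIX, 123 to 181 in TBI and 138, 277 and 237 in TBI+DEIX. Replicates 2 and 3 of TBI+DEIX, which held Cd74 above every TBI library, were also the highest of the irradiated libraries in this sum. The part of these cells in the members' values was not tested.

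Of 7 monocyte markers, 3 rose in DEIX against control and 1 rose in TBI against control, while 1 fell in TBI+DEIX against TBI, and against control 1 rose and 2 fell in TBI+DEIX. Of 7 T and NK cell markers tested, 2 fell in TBI and 2 in TBI+DEIX against control. None was called in DEIX against control or in TBI+DEIX against TBI. Of all genes tested, 3.99% were called in TBI, 7.24% in DEIX and 30% in TBI+DEIX against control, and 8.1% in TBI+DEIX against TBI. Of 7 erythroid markers, 3 fell in TBI+DEIX against TBI and 5 against control, and none was called in TBI or DEIX against control. On leaving out 1 library, no T and NK cell marker was called in TBI without TBI replicate 1 or 3 or any control library. None was called in TBI+DEIX against control without control replicate 2. In TBI+DEIX against TBI, 5 were called without TBI+DEIX replicate 1, in a fit that called 25.8% of all genes. No erythroid marker was called in TBI+DEIX against TBI without TBI replicate 1 or 3 or TBI+DEIX replicate 3. In TBI+DEIX against control none was called without control replicate 3. All 7 were called against TBI without TBI+DEIX replicate 2, in a fit that called 8.7% of all genes. In DEIX against control, 2 were called without DEIX replicate 2, with 8.53% of all genes. The monocyte call in TBI was lost without TBI replicate 2 or control replicate 1 or 3, that in TBI+DEIX against TBI without TBI replicate 2 or 3 or TBI+DEIX replicate 3, and 1 of the 3 calls in DEIX was left without control replicate 2 or 3. The part of these lists was not tested either.

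Among 7 genes of the promoter complex, Rfx5, the RFX subunit that binds the X box, was the only one called in any comparison in the fit of all 12 libraries. Rfx5 went from 8.03 ± 0.31 FPKM in control (SD, n = 3) to 5.71 ± 0.46 with DEIX, 5.16 ± 0.41 with TBI and 5.03 ± 0.63 with both. It fell against control by 0.43, 0.55 and 0.59 on the log2 scale in these groups (limma adjusted p = 0.0344, 0.0151 and 0.00243), and did not differ detectably between TBI+DEIX and TBI (-0.03, adjusted p = 0.862). Its call held under all 13 alternatives in TBI+DEIX, and was lost under 7 of 13 in TBI and 9 of 13 in DEIX, among them the TPM scale. Nfya, Nfyb and Creb1, the most abundant of the complex, were not called. Nfya was at 37.6 ± 2.68 FPKM in control and 36.3 ± 1.40 in TBI.

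Interferon gamma signalling drives Ciita, with IRF1 among its factors, and Socs1 encodes a feedback inhibitor of that signal. Of 7 genes of this list tested, Socs1 fell in TBI and in DEIX and had no call in TBI+DEIX against control (-0.28, limma adjusted p = 0.153). It was at 3.85 ± 0.80 FPKM in control (SD, n = 3), 1.72 ± 0.32 with DEIX, 1.47 ± 0.25 with TBI and 2.97 ± 0.12 with both. The log2 change was -0.97 in TBI (limma adjusted p = 0.00321), -0.83 in DEIX (adjusted p = 0.00819) and 0.69 in TBI+DEIX against TBI (adjusted p = 0.0203). Its interaction of 1.52 was called (adjusted p = 0.0142) in the fit of all libraries and under all 18 alternatives. The rise over TBI was lost in 4 of 14, among them the TPM scale and a fit of these groups alone. Irf1 was at 51.3 ± 3.84 in control and 38.6 ± 1.33 in TBI and was not called (limma adjusted p = 0.475). In DEIX against control Ifngr1, a receptor chain, rose by 0.62 and Jak1, its kinase, by 0.37 (adjusted p = 0.0328 and 0.0457), and Jak1 rose by 0.43 in TBI+DEIX against control (adjusted p = 0.00808). None of these 3 rises was called on the TPM scale, and those in DEIX were lost on leaving out any 1 of the 6 libraries, in 8 of 13 alternatives for Ifngr1 and 9 of 13 for Jak1. On leaving out TBI+DEIX replicate 1, 5 genes of the list were called in TBI+DEIX against TBI, with 25.8% of all genes.

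Of 9 tested genes that cut antigens or turn class II over, Lgmn, an endosomal protease, fell in TBI against control (log2 change -0.37, limma adjusted p = 0.0340) and rose in TBI+DEIX against TBI (0.42, adjusted p = 0.0203). The first call was lost in 9 of 13 alternatives and the second in 5 of 14. Ctsd, another protease, rose in TBI+DEIX against control (0.65, adjusted p = 0.0487), a call lost in 9 of 13. Ctss, which cuts the invariant chain, was at 201 ± 3.38 FPKM in control, 257 ± 51.3 with DEIX, 137 ± 14.4 with TBI and 152 ± 73.1 with both (SD, n = 3), with no call. DEIX against control had no call in this list.

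Of 6 costimulatory genes, Cd40, Cd83 and Cd274 fell in TBI. Cd40, a receptor by which T cells activate antigen-presenting cells, went from 4.87 ± 0.30 FPKM in control (SD, n = 3) to 1.28 ± 0.21 with TBI, 1.07 ± 0.68 with TBI and DEIX together and 1.82 ± 0.32 with DEIX alone. Cd40 fell against control by 1.37, 1.56 and 1.06 on the log2 scale (limma adjusted p = 0.00456, 0.000513 and 0.0155). Cd83, which keeps class II at the cell surface, fell by 1.27, 1.25 and 0.96 (adjusted p = 0.00740, 0.00181 and 0.0254). In TBI and TBI+DEIX both calls held under all 13 alternatives, and in DEIX both were lost under 6 of 13. In TBI+DEIX against TBI, 4 of the 6 genes were called without TBI+DEIX replicate 1, in a fit that called 25.8% of all genes.

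Cd274, which encodes the inhibitory ligand PD-L1, went from 3.54 ± 0.34 FPKM in control (SD, n = 3) to 2.94 ± 1.37 with DEIX, 1.42 ± 0.18 with TBI and 3.95 ± 0.49 with both. It fell in TBI (-0.91, limma adjusted p = 0.0285, lost in 8 of 13 alternatives) and rose in TBI+DEIX against TBI (1.03, adjusted p = 0.0196, lost in 4 of 14). Cd80, a ligand of CD28, rose in TBI+DEIX against control (0.61, adjusted p = 0.0158, lost in 5 of 13). H2-Eb2, a further class II beta gene, was at 1.19 ± 0.20 in control, 0.856 ± 0.348 with DEIX, 0.238 ± 0.029 with TBI and 0.246 ± 0.180 with both. H2-Eb2 fell in TBI and in TBI+DEIX, by 0.82 in each (adjusted p = 0.0141 and 0.00292), and the first call was lost in 3 of 13 alternatives.

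The genes with the most similar profiles were found by the root mean square difference of log2(FPKM + 1) over the 12 libraries, each profile centred on its own mean. H2-Aa was nearest to H2-Ab1 (0.12), another member, and outside the members to Thy1 (0.26), Lck (0.27) and Slamf8 (0.29). Outside the members, H2-Eb1 was likewise nearest to Thy1 and Slamf8 (0.22 and 0.24), and H2-Ab1 to Xcl1 and Thy1 (0.27 and 0.29). Cd74 lay closest, among genes outside the members, to Irf9 (0.29), H2-T24 (0.31) and Ctsw (0.31), and farther from its nearest member, H2-Aa (0.36). For the other members, again among genes outside them, H2-DMa lay closest to Itgb7, Cd48 and Lbh (0.14, 0.14 and 0.16), H2-DMb1 to Dguok, Atf7 and Ptms (0.11, 0.12 and 0.14) and H2-DMb2 to Gpr18, Cd7 and Tlr9 (0.22, 0.22 and 0.23). H2-Ob was nearest to the B cell gene Cd22 (0.24), with Klk1 and Blk next (0.36 and 0.38), and H2-Oa to Emid1, Gm21762 and Il12a (0.24, 0.26 and 0.27). Ciita was nearest to Il27ra, Nfkbie and Cd160 (0.17 each). All profiles share the same 12 libraries and their scaling, and no test was made of this likeness.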

How the data were processed

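Libraries came from whole marrow RNA with a directional MGI kit, per the labels' protocols. The authors deposited FPKM values per gene. STAR 2.6, Cufflinks 2.2.1 and the mm10 build are listed in the submitters' processing notes, with no role or order, and the annotation is not given in the sources used here. Identifiers were matched to GENCODE vM21 (21853 of 21853). FPKM holds no counts, total reads are unknown, and values of low genes are the least precise.

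Values were fitted as log2(FPKM + 1), which understates changes of low genes, with limma 3.58.1 in R 4.3.3 (lmFit, eBayes with trend), with a mean for each of the 4 groups, over the 10994 genes that reached an FPKM of 1 in 3 or more libraries. That model assumes 1 spread per gene in all groups. A gene counts as called under a p of 0.05 adjusted by Benjamini-Hochberg, whatever the size of its change. The fit was tested on simulated data. Ratios were tested by exact two-sided permutation with scipy 1.17.1. Alternatives were another pseudocount, no filter, the TPM scale, TPM without S100a8, S100a9 and Ngp (listed at 0 in some libraries and very high in others), array weights, only the groups compared, a replicate block, leaving out each library and, added later, leaving out replicate 1 of both irradiated groups.

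All members are named; of other lists, called genes and the 3 of highest mean, and for likeness the 3 nearest genes. The members follow a rule by gene name and not by value, but they and the lists were chosen with earlier results of these data known. Ifi30, H2-Ea and Trbc2 were on the lists and were not analysed here. H2-Ab1, Cd74 and Ciita had no matched promoter.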

Additional observations from a re-analysis of the deposited data

Results flagged for a closer look

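Whether the effect of DEIX differed between irradiated and unirradiated mice was read from the limma interaction term in the fit of all 12 libraries. It was called for 5 genes of the lists used here and for no member. Of all genes tested, 22 of 10994 (0.2%) were called. All values are log2 differences, DEIX effect after TBI minus DEIX effect without it, at an FPKM scale with 1 added. Socs1, the feedback inhibitor of interferon signalling, had an interaction of 1.52 (limma adjusted p = 0.0142). The complement genes C1qa, C1qb and C1qc, known from macrophages, had interactions of 2.52, 2.43 and 2.27 (adjusted p = 0.0142, 0.0142 and 0.0160). C1qb was at 35.3 ± 2.93 FPKM in control (SD, n = 3), 12.2 ± 1.33 with DEIX, 18.1 ± 4.66 with TBI and 36.2 ± 8.94 with both. Fn1, a monocyte gene, went the other way, with an interaction of -2.20 (adjusted p = 0.0142). The calls of Socs1 and C1qb held under all 18 alternatives, while those of Fn1, C1qa and C1qc were lost under 2, 3 and 6 of 18, each time on leaving out 1 library: control replicate 3 and TBI replicate 2 for all 3 genes, control replicate 1 also for C1qa and C1qc, and control replicate 2 and DEIX replicates 1 and 2 also for C1qc.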

How the results depend on the processing

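Each group had 3 libraries, and the fit gave a gene the same error in every comparison of 2 groups, although TBI+DEIX libraries were the most spread. Total depth is unknown, so the precision of low values, such as H2-Ob and Ciita in TBI+DEIX replicate 1, cannot be given. Among values of single members under the alternatives, 636 kept their direction and call, 29 gained a call, 12 lost one and 33 changed sign; the cause was not tested.

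The share of all genes called, in parentheses, moved with the settings too. Members called in TBI against control numbered 6 with array weights (38.4%), 6 with only the groups compared (12.9%) and 0 to 2 on leaving out a library (1.39% to 2.36%, 0 members without control replicate 3), against 3. In TBI+DEIX against TBI they numbered 1 with array weights (40.8%), 1 without replicate 1 of both groups (31.5%) and 0 to 1 on leaving out a library (0.0455% to 25.8%), and Cd74 was the gene called each time. In DEIX against control they numbered 5 with array weights (41%) and 6 with only the groups compared (18.7%). In the interaction they numbered 1 with array weights (4.84%) and 0 to 1 on leaving out a library (0.0364% to 3.01%). TBI+DEIX against control had 5 with array weights (56.3%), 5 on the TPM scale (16.8%) and 5 on TPM without S100a8, S100a9 and Ngp (23.6%). It had 3 with only the groups compared (19.8%) and 3 to 5 on leaving out a library (18.2% to 38.5%), against 4.

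With array weights, signs changed in TBI+DEIX against TBI for H2-Aa (0.24), H2-Ab1 (0.30), H2-DMb1 (0.013), H2-DMb2 (0.11) and Ciita (0.15), against control for H2-Ab1 (0.0081), H2-Eb1 (0.077) and Cd74 (0.082), and in the interaction for H2-DMa (0.10) and H2-DMb1 (0.15). Without replicate 1 of both groups, they changed against TBI for H2-Aa (0.28), H2-Ab1 (0.34), H2-DMb1 (0.16), H2-DMb2 (0.16) and Ciita (0.16). Leaving out 1 library gave ranges that cross 0 in TBI+DEIX against TBI for H2-Aa (-0.45 to 0.65), H2-Ab1 (-0.51 to 0.74), H2-Eb1 (-0.19 to 0.81), Cd74 (-0.020 to 1.26), H2-DMb1 (-0.50 to 0.21), H2-DMb2 (-0.35 to 0.19) and Ciita (-0.32 to 0.32), against control for H2-Eb1 (-0.93 to 0.077) and Cd74 (-1.20 to 0.088), and in the interaction for H2-DMa (-0.54 to 0.24) and H2-DMb1 (-0.31 to 0.40). Log2 ratios did so for H2-DMa to H2-Ab1 in TBI against control (-0.37 to 0.34) and H2-Oa to H2-DMa in TBI+DEIX against TBI (-0.21 to 0.56).

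The replicate numbers did not pair the libraries: 3 of 18 same-numbered pairs had a correlation of deviations over 0.1, and 2 libraries correlated best with their own number. The replicate block gave 1 member called in DEIX against control (H2-Oa, with 5.82% of all genes) and 5 in TBI+DEIX against control (H2-DMb1 added, with 27.3%), and changed no other call.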
